A study of Mus musculus with 17 samples.

Results

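Qrfpr and Gpr176 encode 2 G protein-coupled receptors, and they are 2 of the 53379 genes in the deposited count table. They were chosen from these data, as the receptors with the largest rise in ob/ob mice against wild type mice, so their values in that contrast are given as a description without a test. RNA came from glomeruli-enriched kidney cortex of BTBR mice, all 24 weeks old and all under 1 batch label. The 5 wild type mice carry the genotype label WT-d30 and have no treatment label. The 12 ob/ob mice are homozygous for Lep ob, the mutant leptin allele. Saline went to 5 of them (label ob/ob-d30) and atrasentan, a drug that blocks the endothelin A receptor, to 7 (label BTBR ob). Atrasentan was taken in the drinking water at 5 mg per kg per day, and both treatments ran for 6 weeks from an age of 18 weeks. What the d30 ending means is not stated. The ob mutation is constitutive and present in every cell, so the ob/ob mice lack leptin throughout life and are obese and diabetic as well. Library numbers in the labels run in blocks by group, so order of preparation and group cannot be told apart.

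Qrfpr, also known as GPR103, is the receptor of QRFP (26RFa), a neuropeptide of the RFamide family that promotes feeding when given into the brain. It signals mainly through G proteins of the Gq class, and to a lesser degree through Gi. Gpr176 is an orphan receptor, so no ligand was known when it was described, and it is enriched in the suprachiasmatic nucleus, the seat of the central body clock. It couples to Gz, an unusual inhibitory G protein that lowers cyclic AMP, and the regulator Rgs16 acts on the same cyclic AMP rhythm in that nucleus. Neither receptor is a standard marker of a kidney cell type.

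In the GENCODE annotation of GRCm38, Qrfpr (ENSMUSG00000058400.13) lies on the minus strand at chr3:36179424-36222313. It has 3 annotated transcripts, up to 6 exons and 2192 exonic bases. Gpr176 (ENSMUSG00000040133.2) lies on the minus strand at chr2:118277110-118373419, with 1 transcript, 3 exons and 3899 exonic bases. Neither lies on the chromosome of Lep. Where the 2 messages that stood out in ob/ob mice start was not measured. The bases just upstream of the gene models are shown because they adjoin the outermost annotated starts. They are RefSeq reference sequence of build GRCm38.p6, not BTBR sequence, read 5′ to 3′ on the minus strand, at chr3:36222314-36222525 for Qrfpr (212 bases) and chr2:118373420-118373669 for Gpr176 (250 bases). Capitals mark matches to the short motifs named after the sequences.
Qrfpr: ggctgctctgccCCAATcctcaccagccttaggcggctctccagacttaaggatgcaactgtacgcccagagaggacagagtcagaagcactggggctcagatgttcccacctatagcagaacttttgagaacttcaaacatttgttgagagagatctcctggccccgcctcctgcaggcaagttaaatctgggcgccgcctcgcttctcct
Gpr176: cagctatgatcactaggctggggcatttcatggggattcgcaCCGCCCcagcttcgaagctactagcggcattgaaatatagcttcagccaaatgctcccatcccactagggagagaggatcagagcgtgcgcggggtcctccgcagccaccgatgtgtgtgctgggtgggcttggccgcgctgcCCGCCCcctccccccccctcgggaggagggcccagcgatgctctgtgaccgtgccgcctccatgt

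The Qrfpr stretch was 55.2% G or C with 6 CpG pairs, and the Gpr176 stretch was 64.0% G or C with 16. On both strands, 6 motifs were searched, chosen after the expression values were known. The CCAAT box (CCAAT), a general promoter element, was found 1 time upstream of Qrfpr, 200 bases before the gene model. The GC box (GGGCGG), which Sp1-type factors bind, was found 2 times upstream of Gpr176, both on the opposite strand as CCGCCC, at 65 and 208 bases. Such matches are common: of 27025 RefSeq promoters cut to the same lengths, 30.6% held CCAAT in 212 bases and 32.9% held GGGCGG in 250. The E-box of the clock activators (CACGTG), the glucocorticoid receptor half-site (AGAACA), the cyclic AMP response element (TGACGT) and the TATA box (TATAAA) had no match in either stretch. In 250 bases, 6.05%, 16.2%, 6.56% and 12.97% of all promoters held them, in that order. No match says only that these letters are absent from these windows, and none of the motifs lay in both.

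The depth was 29161833 to 40965108 gene reads in wild type libraries, 35938445 to 40268662 in saline libraries and 37252939 to 52528747 in atrasentan libraries. Podocyte and endothelial markers were abundant in all groups, as the label of the tissue calls for, with mean log2 CPM (log2 of counts scaled to library size, CPM, a level) of 8.07 and 9.01 in wild type. Tubular RNA was present too and moved with the groups: 22 proximal tubule markers summed to 1666 to 3518 CPM in wild type, 2929 to 15032 with saline and 582 to 3280 with atrasentan. Saline libraries 1 and 3 had the 2 highest sums, 15032 and 13644. Of all 17766 genes tested, 5190 were called between atrasentan and wild type (2619 higher, 2571 lower, and with upper-quartile scaling 1897 higher and 3153 lower). Between saline and wild type 910 were called (570 higher, 340 lower, and with upper-quartile scaling 503 and 483). In bulk tissue, a change in the number of cells of a type and a change in RNA per cell cannot be told apart.

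Qrfpr was low but detected in wild type glomeruli-enriched cortex and well expressed in every ob/ob library. In the wild type mice it stood at 1.06, 1.90, 6.01, 0.365 and 0.825 CPM, from 48, 63, 190, 12 and 28 reads. With saline it stood at 59.5, 87.0, 37.2, 20.9 and 14.1 CPM, from 2267, 3112, 1311, 868 and 543 reads. With atrasentan the 7 libraries ran from 42.2 to 87.5 CPM with a median of 58.5. The lowest ob/ob library, saline library 5, was above the highest wild type library, replicate 3, and the saline mice differed more among themselves than the treated mice did. Group means were 2.03 ± 2.29 CPM (SD, n = 5) in wild type, 43.7 ± 29.8 (SD, n = 5) with saline and 61.7 ± 17.7 (SD, n = 7) with atrasentan. The highest library held 16.5 times the lowest in wild type, 6.16 times in saline and 2.07 times in atrasentan.

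Gpr176 was also low in wild type and higher in every ob/ob library, but on a smaller scale than Qrfpr. The wild type libraries held 2.37, 0.543, 2.31, 0.882 and 0.619 CPM, from 107, 18, 73, 29 and 21 reads. The saline libraries held 7.17, 9.67, 13.4, 11.1 and 5.95 CPM, from 273, 346, 472, 461 and 229 reads. The atrasentan libraries ran from 11.6 to 29.96 CPM with a median of 23.4. Every wild type library was below every saline library, and 5 of the 7 treated libraries were above all saline libraries. Means were 1.34 ± 0.917 CPM (SD, n = 5), 9.46 ± 2.99 (SD, n = 5) and 20.6 ± 7.29 (SD, n = 7) in that order.

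**Figure D1:**
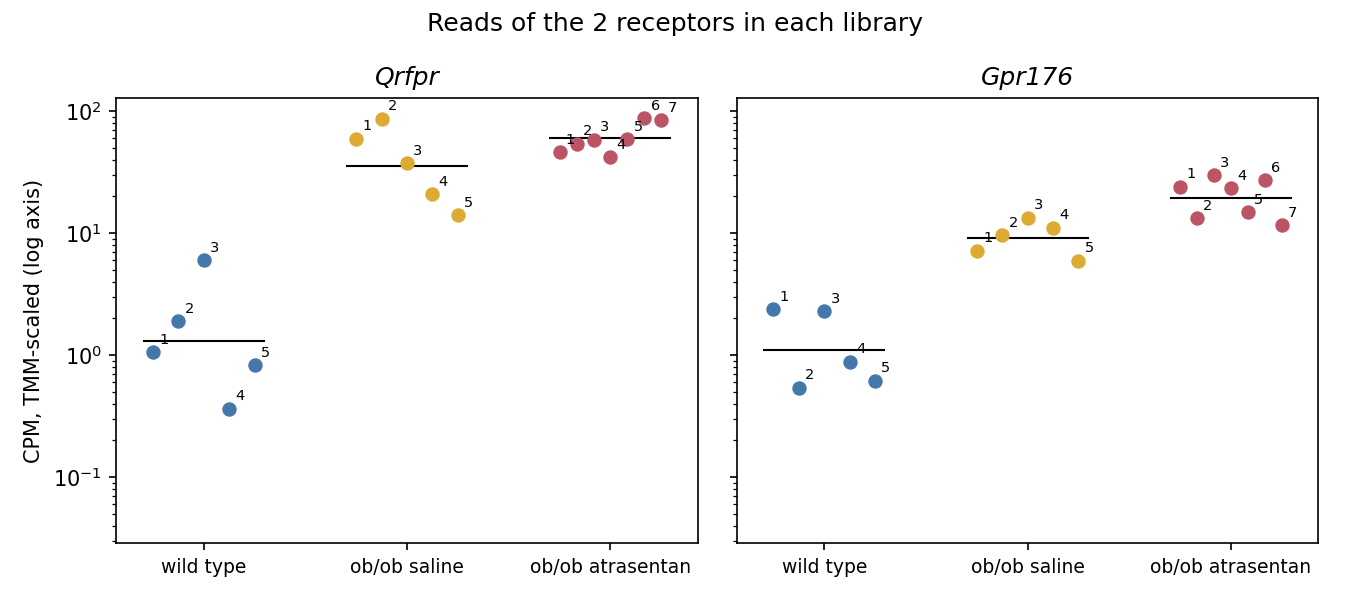
Level of Qrfpr (left) and Gpr176 (right) in each library, in TMM-scaled CPM on a log axis. Each point is 1 mouse with its library number, and bars are the means of log values; wild type libraries lie at or below 6.01 CPM for Qrfpr and 2.37 CPM for Gpr176, and all ob/ob libraries lie above them.

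Per length, the scale on which the genes can be set against each other, Qrfpr averaged 0.927, 19.96 and 28.2 RPKM (CPM divided by exonic length in kilobases) in wild type, saline and atrasentan. Gpr176 averaged 0.345, 2.43 and 5.30 RPKM. Qrfpr was therefore the more abundant message in each group mean, although in wild type libraries 1 and 4 its RPKM was below that of Gpr176. In the normalized log2 values that the authors deposited, Qrfpr ran from 6.12 to 8.16 in wild type, 8.99 to 11.03 with saline and 10.22 to 11.01 with atrasentan. Gpr176 ran from 6.15 to 7.18, 7.97 to 8.77 and 8.66 to 9.62 on that scale, so the groups were ordered the same way there.

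The contrast that chose the receptors gave large values for both. For Qrfpr the fitted log2 fold change was 4.44 ± 0.62 (SE) in saline against wild type and 4.94 ± 0.62 in atrasentan against wild type, or ratios of mean CPM of 21.5 and 30.4. The Qrfpr values depended on wild type library 3, without which they were 5.39 and 5.89. For Gpr176 the log2 fold change was 2.80 ± 0.41 and 3.93 ± 0.42, with ratios of mean CPM of 7.04 and 15.4. Even the closest libraries were apart: the lowest saline library held 2.35 times the Qrfpr and 2.51 times the Gpr176 of the highest wild type library. In this fit Qrfpr had the third largest log2 fold change of all genes tested in saline against wild type, and Gpr176 ranked 44. For all 12 ob/ob libraries to lie above all 5 wild type libraries was a feature of 1.09% of all genes tested (193 genes), and nothing is read from it for genes chosen on this contrast.

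Of 351 G protein-coupled receptors found in the table, 207 were tested, and both receptors stood at the head of them. In saline against wild type Qrfpr ranked 1 and Gpr176 ranked 2. The values just below were 2.36 ± 0.51 (SE) for Adra2b, an adrenergic receptor, 2.21 ± 0.84 for Cckar, a cholecystokinin receptor, and 2.20 ± 1.01 for Adgrg2, an adhesion receptor. In atrasentan against wild type Qrfpr again ranked 1, but Gpr176 ranked 3. Ccr3, a chemokine receptor of eosinophils, lay between them at 4.203 ± 1.078, from a mean of 0.0446 CPM in wild type and 0.890 CPM with atrasentan. It had 0 to 4 reads in a wild type library. Its mean with atrasentan rested mostly on libraries 3 and 4 (102 and 73 reads), while the other treated libraries had 0 to 17. Hcar2, a receptor of hydroxybutyrate and niacin, followed at 3.46 ± 0.65 and C3ar1, the receptor of complement C3a, at 3.07 ± 0.48. By the mean of both log2 fold changes Qrfpr ranked 1 (4.69), Gpr176 ranked 2 (3.36) and Ccr3 ranked 3 (3.13).

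The receptors next in rank differed in how their means lay across the ob/ob groups. Adra2b averaged 4.18 CPM in wild type, 21.5 with saline and 3.17 with atrasentan. Cckar averaged 1.25, 5.77 and 0.607 CPM. Both levels with atrasentan were below those with saline, whereas the means of Qrfpr and Gpr176 were not lower with atrasentan than with saline. Within the saline group Cckar stood at 9.67, 1.79, 10.7, 1.44 and 5.28 CPM in libraries 1 to 5, where the proximal tubule markers summed to 15032, 3991, 13644, 2929 and 7148 CPM. Libraries 1, 3 and 5 were thus the highest for both, and the part of tubular RNA in the Cckar level was not tested. Other high ranking receptors had their highest mean with atrasentan, as Gpr176 did. Ccr3 averaged 0.0446, 0.197 and 0.890 CPM in wild type, saline and atrasentan, Hcar2 0.279, 0.780 and 3.15 CPM, and C3ar1 0.781, 2.05 and 6.58 CPM. Of the 207 receptors, 5 had all 12 ob/ob libraries above all 5 wild type libraries, beside 1.09% of all genes tested. Qrfpr and Gpr176, chosen on this contrast, were among them. The rest were the platelet and microglial ADP receptor P2ry12 (0.357, 1.24 and 2.88 CPM on average), C3ar1 and the thrombin receptor F2r. Among the other 205 tested, 5 rose and 11 fell in saline against wild type, where 3.21% of all genes tested were called higher and 1.91% lower. In atrasentan against saline, where the shares of all genes were 15.3% and 18.5%, 41 rose and 25 fell. Without saline libraries 1 and 3, 12 rose and 8 fell, in a fit that called fewer of all genes too.

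**Figure D2:**
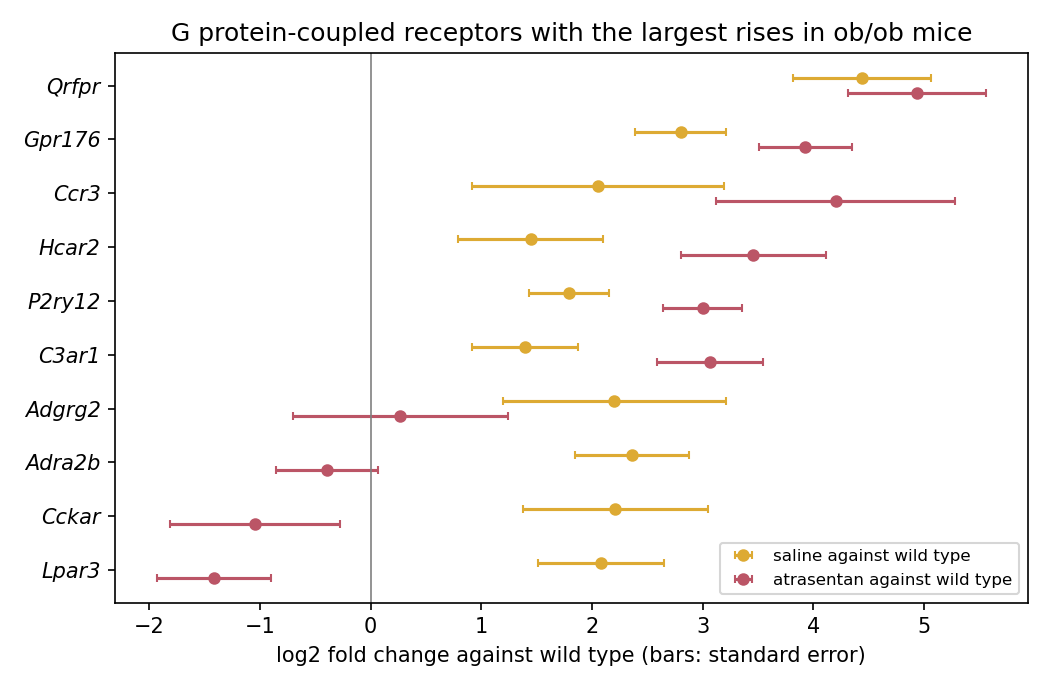
Log2 fold change against wild type, with standard error, of the receptors among the 6 largest rises in saline (yellow) or in atrasentan (red), ordered by the mean of both. Qrfpr and Gpr176 are high in both comparisons, while Adra2b lies at 2.36 with saline and -0.39 with atrasentan.

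Whether endothelin A blockade went with a different level of the receptors was asked within the ob/ob mice. Gpr176 rose with atrasentan and Qrfpr did not pass the test. For Gpr176 the log2 fold change was 1.13 ± 0.36 (SE), or 2.18-fold with a 95% interval of 1.29 to 3.68, with an adjusted p of 0.0227 (edgeR, all genes). Of the 7 treated libraries, 5 lay above every saline library, and 4 of the 5 saline libraries lay below every treated one. An exact two-sided permutation test of mean log2 CPM gave p = 0.00758, where the smallest value possible for 7 against 5 is 0.00253. The call was 1 of many: 33.8% of all genes tested were called in this comparison, 15.3% as higher and 18.5% as lower. The comparison shares the saline and atrasentan libraries with the contrast that chose the receptors.

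For Qrfpr the difference between atrasentan and saline was 0.50 ± 0.49 (SE) on the log2 scale, with an adjusted p of 0.454 (edgeR). The 95% interval, 0.689-fold to 2.89-fold, includes no change as well as a rise like that of Gpr176, so equal levels were not shown. By an exact two-sided permutation test of mean log2 CPM, p was 0.139. Saline libraries 3, 4 and 5 lay below every treated library, and the other two lay within the treated range.

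The call for Gpr176 was lost in 5 of 26 alternative settings. Without saline library 1 the log2 fold change was 1.04 with an adjusted p of 0.0595, and without saline library 5 it was 0.998 with 0.0606 (edgeR). Leaving out saline libraries 1 and 3 gave 1.20 and an adjusted p of 0.0789. With the proximal tubule marker mean as a covariate the change was 1.48 and the adjusted p 0.227, and with podocyte minus proximal tubule means it was 1.12 and 0.160.

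Other measures moved with the treated group, in which 15.3% of all genes were called higher and 18.5% lower than with saline. Of the 14 macrophage markers, 11 rose with atrasentan against saline and none fell, with sums of 307 to 517 CPM in saline and 483 to 1639.9 with atrasentan. Of 16 mesangial and smooth muscle markers 9 rose and none fell (6714 to 8982 CPM in saline and 9991 to 16694 with atrasentan), and of 18 endothelial markers 12 rose and none fell (13385 to 18287 and 18943 to 25402 CPM). Of 20 podocyte markers 8 fell and 1 rose (6893 to 12208 and 4934 to 8498 CPM), and of 22 proximal tubule markers 19 fell and none rose. No listed marker of these types was at 0 in all libraries. Treated libraries also had fewer genes detected, 21396 to 23081 against 24335 to 25313 with saline, and fewer reads outside genes, 3.17% to 5.65% against 5.95% to 8.17%. Their part in the Gpr176 result was not tested beyond the tubular covariates.

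Qrfpr has a close copy in the mouse, C130060K24Rik (named Qrfprl in RefSeq), at chr6:65381105-65458150. It was almost silent: 0 to 2 reads in wild type, 0 to 39 with saline and 0 to 9 with atrasentan. At the length of the reads, 50 bases, 9 of 2190 distinct stretches of the Qrfpr transcripts (0.411%) also occur in another gene, all in this copy. For Gpr176 it was 85 of 3850 stretches (2.21%), all in Gm29232, a transcript that overlaps its end and had 0 reads in all libraries. Nearly all of both messages was thus unique among the annotated transcripts at the read length.

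Genes that lie within the receptor loci had few reads. In Qrfpr, the antisense gene Gm43255 had at most 16 reads in a library and the pseudogene Gm18893 at most 9. In Gpr176, the antisense gene 1700054M17Rik had at most 1 read and Gm22651 had 0. Neither flanking gene of Qrfpr was called between saline and wild type (edgeR adjusted p of 0.935 for D3Ertd254e and 0.827 for Anxa5). D3Ertd254e, 9082 bases away, averaged 17.9, 18.3 and 15.6 CPM in wild type, saline and atrasentan, and Anxa5, an annexin 226610 bases away, averaged 469, 447 and 651 CPM. Anxa5 rose with atrasentan by 0.54 ± 0.12 (SE) on the log2 scale against saline (edgeR adjusted p = 0.00355) and by 0.47 ± 0.12 against wild type (edgeR adjusted p = 0.00850). Beside Gpr176, Eif2ak4, a kinase of the amino acid starvation response 15199 bases away, averaged 23.5, 27.1 and 24.2 CPM. Thbs1, which encodes the matrix protein thrombospondin 1 and lies 149977 bases away, averaged 102 ± 47.9, 181 ± 33.0 and 388 ± 186 CPM (SD, n = 5, 5 and 7). Thbs1 rose with atrasentan against saline by 1.10 ± 0.35 (SE) on the log2 scale (edgeR adjusted p = 0.0230) and by 1.92 ± 0.36 against wild type (edgeR adjusted p = 8.35e-04), whereas its value in saline against wild type was 0.82 ± 0.37 (edgeR adjusted p = 0.200).

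The gene of the ligand, Qrfp, was scarce and passed no test. It averaged 0.205 ± 0.127 CPM (SD, n = 5) in wild type, 0.222 ± 0.153 (SD, n = 5) with saline and 0.224 ± 0.115 (SD, n = 7) with atrasentan, a level of a few reads per library. Its log2 fold change was 0.11 ± 0.59 (SE) in saline against wild type (edgeR adjusted p = 0.948) and 0.03 ± 0.53 in atrasentan against saline (0.971). Of the other RFamide peptides and receptors, Npff, the neuropeptide FF precursor, fell with atrasentan by 0.99 ± 0.36 on the log2 scale (edgeR adjusted p = 0.0446, and 0.0522 with upper-quartile scaling). Kiss1r, the kisspeptin receptor, averaged 3.06, 2.87 and 3.39 CPM. The list held no other tested gene: Npvf, Prlh, Npffr1 and Npffr2 had 1, 7, 6 and 13 reads over all libraries and Prlhr had 0.

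The G proteins through which Qrfpr acts were abundant in all groups. Between saline and wild type, where 5.12% of all genes tested were called (3.21% higher, 1.91% lower), 1 of 25 genes of Gq signalling and receptor desensitisation was higher and 2 were lower, with a median log2 fold change of -0.00 beside 0.01 for all genes. The higher one was Plcb4 (0.56 ± 0.15 SE, edgeR adjusted p = 0.0435), a phospholipase C, which was no longer called with upper-quartile scaling. The lower ones were Grk5 (-0.73 ± 0.16), a receptor kinase, and the phospholipase Plcb2 (-0.75 ± 0.19). The alpha subunits themselves were not called there (edgeR adjusted p of 0.833 and 0.667): Gnaq averaged 88.1, 90.9 and 118 CPM over wild type, saline and atrasentan, and Gna11 244, 231 and 339 CPM.

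Between atrasentan and saline, 9 of the 25 rose and 2 fell, where 15.3% of all genes were called higher and 18.5% lower, with a median of 0.26 beside -0.01 for all genes. Gna11 rose by 0.55 ± 0.08 (SE, edgeR adjusted p = 2.42e-04) and Gnaq by 0.38 ± 0.09 (edgeR adjusted p = 0.00377). Arrb2, the arrestin that ends receptor signalling, rose by 0.47 ± 0.10 and the phospholipase Plcb3 by 0.47 ± 0.13. The genes that fell were Gna14, a further alpha subunit of this class (-2.88 ± 0.72), and the calcium channel Itpr2 (-0.41 ± 0.14). Without saline libraries 1 and 3, 2 rose and none fell, in a fit that called fewer of all genes too. With the proximal tubule covariate none of the 25 was called, where only 58 of all 17766 genes were. The value with that covariate was 0.19 for Gnaq (edgeR adjusted p = 0.590) and 0.43 for Gna11 (edgeR adjusted p = 0.164), both smaller than without it. Against wild type, where 29.2% of all genes were called (14.7% higher, 14.5% lower), 8 rose and 2 fell.

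Of the partners of Gpr176, Gnaz moved and Rgs16 did not pass the test. Gnaz, the alpha subunit to which the receptor couples, averaged 9.16 ± 2.07, 11.8 ± 0.739 and 17.4 ± 2.67 CPM (SD, n = 5, 5 and 7), so it ran in the same order of group means as Gpr176. Its log2 fold change was 0.37 ± 0.15 (SE) in saline against wild type (edgeR adjusted p = 0.168), 0.56 ± 0.14 in atrasentan against saline (0.00753) and 0.93 ± 0.15 in atrasentan against wild type (2.10e-04). With the proximal tubule covariate the value in atrasentan against saline was 0.72 with an adjusted p of 0.184. Rgs16 averaged 2.0, 1.48 and 2.24 CPM and passed no test (atrasentan against saline 0.59 ± 0.41, edgeR adjusted p = 0.272).

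Of 27 tested genes of Gz and Gi signalling and cyclic AMP, 3 rose in saline against wild type and none fell, where 3.21% of all genes were called higher and 1.91% lower. These were the inhibitory subunit Gnai1 (0.46 ± 0.08 SE, edgeR adjusted p = 0.00791), the cyclic AMP phosphodiesterase Pde4d (1.05 ± 0.23) and the regulatory subunit of protein kinase A Prkar2b (0.55 ± 0.13). With upper-quartile scaling 2 genes were also called lower. In atrasentan against saline 9 rose and 2 fell, beside 15.3% higher and 18.5% lower of all genes, with a median of 0.29 beside -0.01. Gnai1 rose by 0.49 ± 0.08, Gnai2 by 0.53 ± 0.09, Prkar1a by 0.45 ± 0.09 and Prkar1b by 0.90 ± 0.22. Pde4d fell by 1.26 ± 0.21 on the log2 scale and the adenylyl cyclase Adcy1 by 0.80 ± 0.21. Without saline libraries 1 and 3, 5 rose and 2 fell, in a fit that called fewer of all genes too. None of the list was called with the proximal tubule covariate, where only 58 of all 17766 genes were. With that covariate the value was 0.61 for Gnai1 (edgeR adjusted p = 0.0622) and -1.57 for Pde4d (edgeR adjusted p = 0.0575). Neither was smaller in size than without it, whereas the values of Gnaq and Gna11 were. The part of tubular RNA in these changes was not tested further. In atrasentan against wild type 10 rose and 2 fell, beside 14.7% higher and 14.5% lower of all genes.

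**Figure D3:**
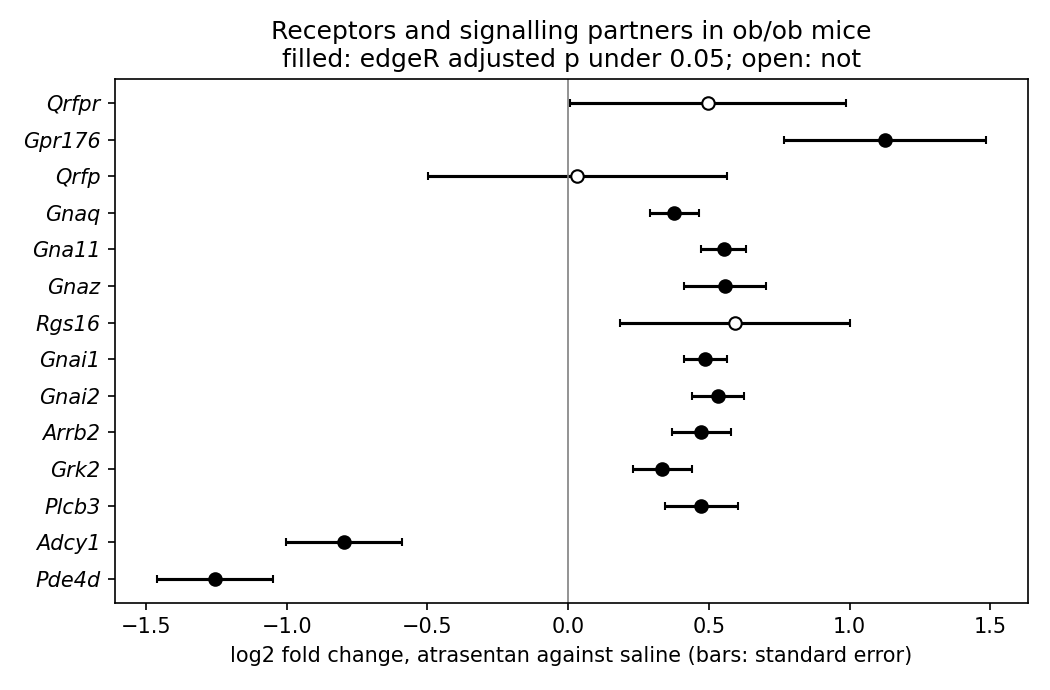
Log2 fold change, with standard error, between atrasentan and saline for both receptors, the ligand gene Qrfp and named signalling genes; filled points have an edgeR adjusted p under 0.05. Gpr176, Gnaq, Gna11 and Gnaz lie above 0 and are filled, while Qrfpr, Qrfp and Rgs16 are open.

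Gpr176 is known for its role in the clock, so 23 clock genes were set beside it. In saline against wild type, where 3.21% of all genes were called higher and 1.91% lower, 1 of them fell and none rose: Arntl, which encodes the clock activator BMAL1, by 2.69 ± 0.58 on the log2 scale (edgeR adjusted p = 0.0191). The list's median was 0.49 in that comparison, beside 0.01 for all genes. Without saline libraries 1 and 3 the value for Arntl was -2.54 with an adjusted p of 0.157, and with the proximal tubule covariate it was -2.73 with 0.184 (edgeR), so the call was lost at a log2 fold change of much the same size. In atrasentan against saline 2 of the 23 rose and 3 fell, beside 15.3% higher and 18.5% lower of all genes. The kinases Csnk1e and Csnk1d rose, and Fbxl21 and Npas2 were among those that fell. Without saline libraries 1 and 3, where fewer of all genes were called too, none of the list was called. Against wild type 4 rose and 5 fell with atrasentan, beside 14.7% higher and 14.5% lower of all genes, among them Cry1, a clock repressor (1.87 ± 0.33 SE), Npas2, an activator (-5.12 ± 0.89), and Arntl (-3.31 ± 0.53).

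The 5 wild type mice were not alike in Arntl. It stood at 4.34, 29.97, 7.11, 52.5 and 63.4 CPM in wild type libraries 1 to 5, from 3.99 to 6.18 CPM with saline and from 1.69 to 6.25 CPM with atrasentan. Dbp, a clock output gene that runs opposite to Arntl, stood at 383, 131, 349, 42.8 and 34.6 CPM in the same wild type libraries. Wild type libraries 1 and 3 had the lowest Arntl, the highest Dbp and the highest Gpr176 (2.37 and 2.31 CPM), and the other 3 had Gpr176 below 1 CPM. The hour at which each mouse was killed is not stated, and its part in the Gpr176 level was not tested.

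Receptors of appetite and energy balance, the company in which Qrfpr acts in the brain, were mostly silent in this tissue. Of 32 in the list, 14 were tested, and none of them was called in saline against wild type, where 5.12% of all genes were called, less than 1 in 14. With atrasentan against saline 1 of the 14 rose and 1 fell, beside 15.3% higher and 18.5% lower of all genes. Adipor1, an adiponectin receptor, rose by 0.29 ± 0.08 (SE, edgeR adjusted p = 0.00846). Cckar fell by 3.26 ± 0.78 on the log2 scale (edgeR adjusted p = 0.00450). With RLE scaling 3 of the 14 fell. Against wild type Adipor1 and Adipor2 rose with atrasentan and the glucagon receptor Gcgr fell (-1.55 ± 0.54), beside 14.7% higher and 14.5% lower of all genes. The leptin receptor Lepr averaged 6.20, 7.51 and 9.57 CPM and was not called in any comparison. Receptors with no read in any library included Ghsr, Mc3r, Mc5r and Galr1.

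Correlates of the receptors were looked for within groups, since a difference between groups had chosen them. Each library was taken as its deviation in log2 CPM from its group mean, over all 17 libraries, and 41 relations were tested by permutation within groups. With Benjamini-Hochberg adjustment none had an adjusted p under 0.05, by Pearson's r or by Spearman's rho. The lowest belonged to Qrfpr and the mean of the macrophage markers: r was -0.47 (permutation p = 0.00786, adjusted p = 0.322) and rho was -0.67 (permutation p = 0.00158, adjusted p = 0.0648). Without the 2 libraries farthest from the median, r was -0.68. The sign was negative in each group, with r of -0.83 in wild type, -0.78 in saline and -0.40 in atrasentan. For Gpr176 and the macrophage mean r was 0.17 (permutation p = 0.533, adjusted p = 0.936).

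Gpr176 had its lowest unadjusted p with the number of genes detected, at r = 0.54 (permutation p = 0.0244, adjusted p = 0.499). With Arntl its r was -0.57 (permutation p = 0.130, adjusted p = 0.764), and it was -0.34 without wild type libraries 1 and 5, so the relation rested in part on them. With the proximal tubule mean, r was 0.04 for Qrfpr (permutation p = 0.850, adjusted p = 0.986) and 0.17 for Gpr176 (permutation p = 0.451, adjusted p = 0.882). The same 41 relations were also taken within the 7 treated libraries alone, without adjustment. The lowest p there was that of Gpr176 and the parietal epithelium mean, with r of 0.82 (exact permutation p = 0.00516, not adjusted). The next lowest was that of Gpr176 and the fibroblast mean, with r of 0.81 (exact permutation p = 0.0460, not adjusted). In wild type the same values were -0.02 and -0.95, and in saline -0.39 and 0.74, with no common sign.

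From mouse to mouse within groups, no relation between the receptors passed the test. Their r within groups was 0.28 (permutation p = 0.452, adjusted p = 0.882) and their rho 0.15 (permutation p = 0.618, adjusted p = 0.869). Without wild type libraries 1 and 2, which lay farthest out, r was 0.44, and without wild type library 3 it was -0.02. In the scan of 13038 protein-coding genes Gpr176 ranked 1736 by likeness to Qrfpr.

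**Figure D4:**
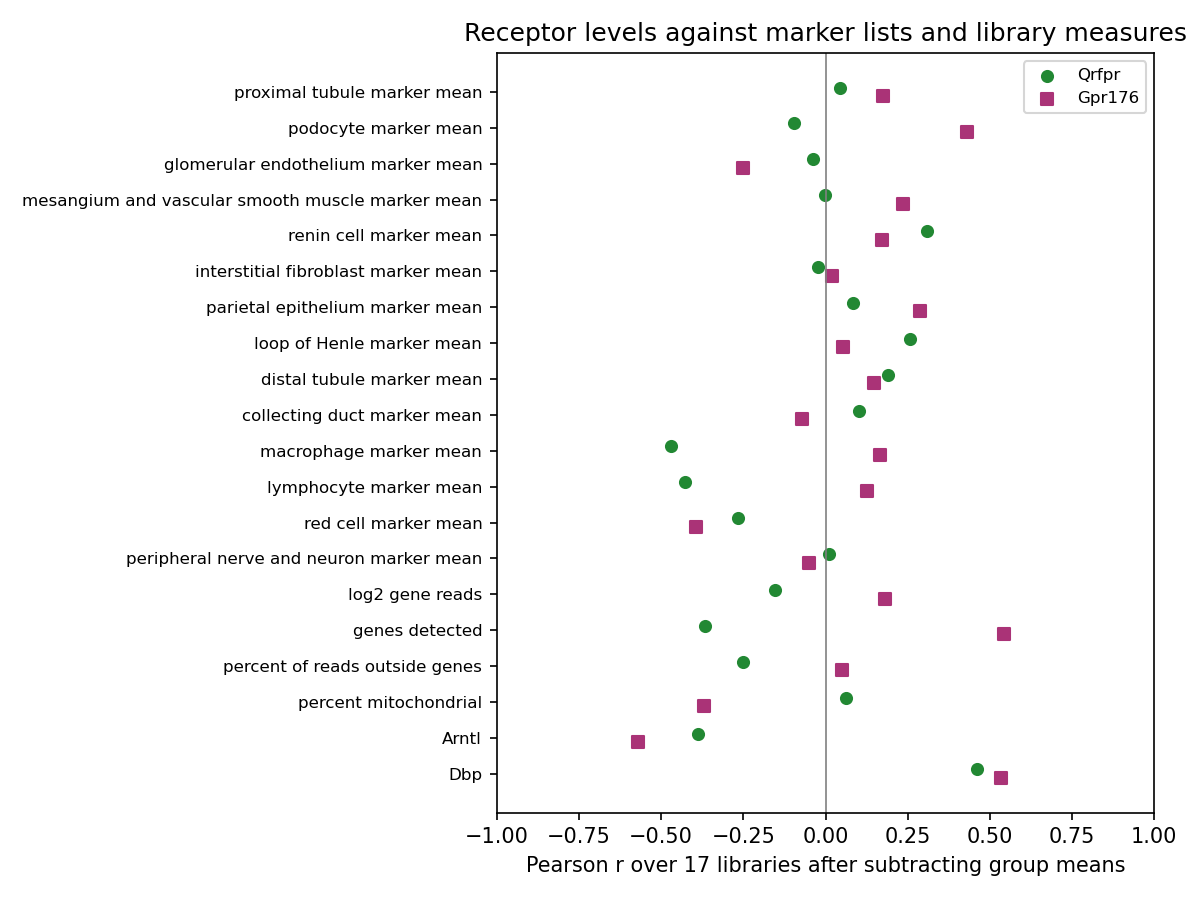
Pearson r of log2 CPM of Qrfpr (circles) and Gpr176 (squares) with marker list means, library measures, Arntl and Dbp, over 17 libraries after group means were subtracted. The macrophage mean lies at -0.47 for Qrfpr and 0.17 for Gpr176, and no relation shown passed adjustment.

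Across single genes, the pattern most like that of Qrfpr within groups was that of Fkbp5, a chaperone of the glucocorticoid receptor whose gene that receptor induces. The likeness was r = 0.84 over 17 libraries with group means subtracted, given as a description since Fkbp5 was picked from the scan. In wild type Fkbp5 stood at 54.4, 104, 109, 36.7 and 30.2 CPM, so libraries 2 and 3 led for both genes. With saline it stood at 276, 520, 225, 128 and 124 CPM, the same order of libraries as for Qrfpr. With atrasentan it ran from 137 to 459 CPM with a median of 218, and the highest library, replicate 6, was also the highest for Qrfpr.

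Next to Fkbp5 came Yjefn3 (r = 0.83), Fam107a (0.81), a stress gene that glucocorticoids raise, Baiap2 (0.79), a regulator of actin, Trabd (0.77) and Tigar (0.76), a phosphatase of sugar metabolism. Fam107a stood at 13.7, 44.1, 33.5, 11.7 and 14.2 CPM in wild type and at 69.8, 106, 51.4, 32.1 and 34.4 CPM with saline. The genes most opposed were the adhesion receptor of myeloid cells Adgre4 (-0.92), Rgl1 (-0.83) and Lhfpl2 (-0.82). Adgre4 stood at 12.1, 8.90, 5.37, 19.7 and 23.0 CPM in wild type and at 7.41, 5.51, 10.7, 13.7 and 21.1 CPM with saline. With atrasentan it ran from 10.5 to 28.1 CPM. In each of the 3 groups, the library with the least Adgre4 was the one with the most Qrfpr. Only 3 genes of the scan reached r = 0.8 and 5 reached -0.8, and the scan was not tested against chance.

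**Figure D5:**
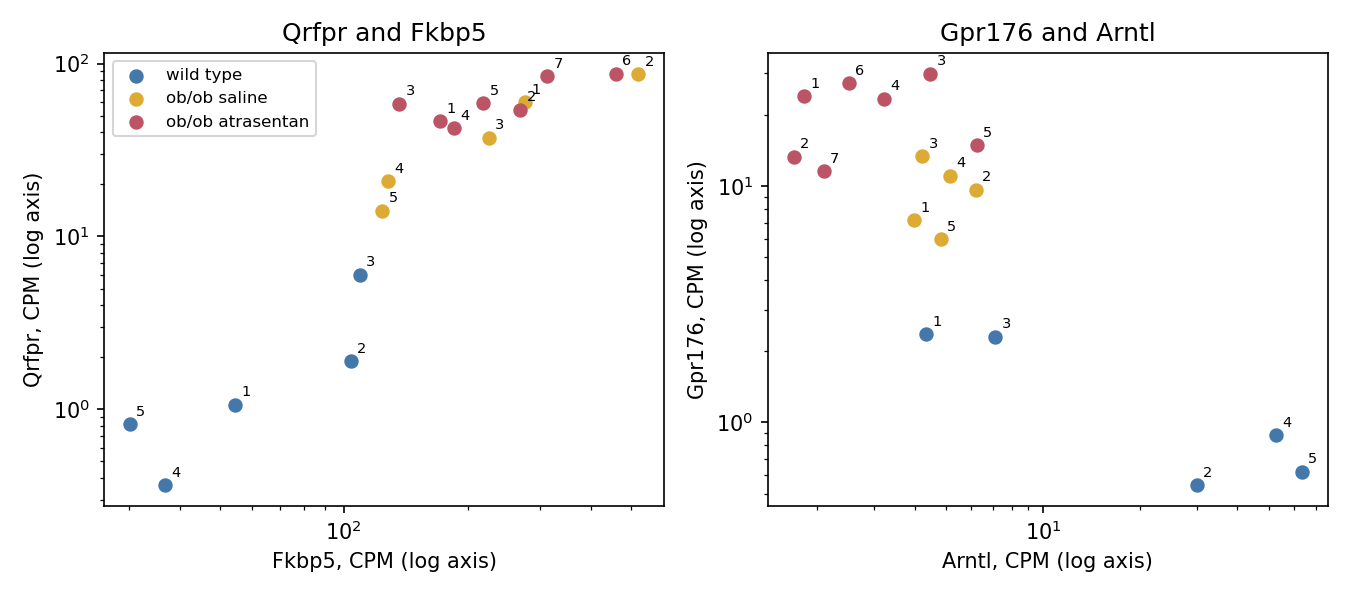
Qrfpr against Fkbp5 (left) and Gpr176 against Arntl (right), in CPM on log axes, with each point a mouse, its library number and its group colour. The 5 saline libraries keep the same order for Qrfpr and Fkbp5, and wild type libraries 1 and 3 have the highest wild type Gpr176 and the lowest wild type Arntl.

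The genes most like Gpr176 within groups were others. Siglech, a lectin of plasmacytoid dendritic cells and microglia, led with r = 0.82, followed by Klhl29 (0.81), Glg1 (0.79), a Golgi glycoprotein, Bcar3 (0.79), an adaptor of cell adhesion signalling, Tmppe (0.78) and the transcription factor Sox5 (0.78). Most opposed were Tmem88 (-0.84), an inhibitor of Wnt signalling, Sapcd1 (-0.81) and Tigd2 (-0.81). Siglech was low, at 1.36, 1.63 and 2.0 CPM on average in wild type, saline and atrasentan. Of the 13038 genes 2 reached r = 0.8 and 3 reached -0.8.

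With group means kept in, likeness mostly measures a shared step between wild type and ob/ob mice, since the groups do not overlap for either receptor. On that measure the genes most like Qrfpr were Cdo1, the cysteine dioxygenase of taurine synthesis (r = 0.94), Timp4, an inhibitor of matrix proteases (0.93), Clca3a1 (0.92), the ubiquitin ligase Wwp1 (0.92) and again Fkbp5 (0.92). Cdo1 averaged 22.0, 65.4 and 81.0 CPM in wild type, saline and atrasentan, and Timp4 0.655, 4.71 and 8.45 CPM. Of these, Cdo1, Timp4 and Fkbp5 also kept an r above 0.7 with group means subtracted (0.75, 0.71 and 0.84). For Gpr176 they were Gabra3, a subunit of the GABA type A receptor (0.96), the scaffold protein Cask (0.95), Gm6133 (0.94), the angiopoietin Angpt4 (0.94) and the vascular growth factor Vegfd (0.93).

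Gabra3 shared the steps of Gpr176 closely. It stood at 0.354, 0.151, 0.284, 0.0608 and 0.0295 CPM in wild type and at 2.36, 2.32, 4.37, 1.88 and 2.49 CPM with saline, and ran from 3.58 to 22.6 CPM with a median of 5.79 with atrasentan. Wild type libraries 1 and 3 and saline library 3 were the highest of their groups for both genes. With atrasentan the highest libraries differed. Gpr176 was highest in library 3 (29.96 CPM), where Gabra3 stood at 4.64 CPM, and Gabra3 was highest in library 6. Angpt4 averaged 5.78, 18.1 and 45.9 CPM and Vegfd 18.3, 47.5 and 117 CPM, in the same order of groups. Qrfpr ranked 17 among the genes most like Gpr176 on this measure, and Gpr176 ranked 9 for Qrfpr.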

How the data were processed

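Poly(A) RNA from 17 mice was made into TruSeq libraries and sequenced single-end at 50 bases, per the labels' protocols. The authors deposited raw counts of reads per gene (53379 genes). Per the submitters' processing notes, the build was GRCm38 and the tools included HTSeq, STAR, limma, edgeR and DESeq2. Of the counting, neither strand setting nor annotation release is given in the sources used here. Sense and antisense reads cannot be told apart. HTSeq's 5 lines that name no gene were kept out of library sizes and tests. They hold reads with several alignments (23.4% to 31.8% of a library), reads outside genes (3.17% to 8.58%) and ambiguous reads (2.93% to 3.37%). Reads that align to several places were thus not counted. A second table the authors deposited holds normalized log2 values, whose transform is not stated. It was used for the levels of the receptors and, as an alternative, for the correlates within groups. Symbols came from GENCODE M21, which matched 99.8% of the IDs.

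The deposited counts entered the quasi-likelihood F test of edgeR 4.0.16 (R 4.3.3), with TMM factors (0.892 to 1.15), filterByExpr by group (17766 genes left) and all 17 libraries in 1 fit. P-values are two-sided, were adjusted by Benjamini-Hochberg over all genes tested, and led to a call under 0.05. A standard error is the log2 fold change divided by the square root of F, and 95% intervals come from it. CPM and RPKM use TMM-scaled library sizes, and log2 CPM has a prior count of 2. Each library is labelled as a separate sample, and their numbers follow the order of deposit and pair nothing. Permutation tests of r drew 100000 resamples within groups, and r between single genes was scanned over protein-coding genes of at least 1 CPM on average. The scripts were tested on simulated data. Alternatives were DESeq2 1.42.0, limma 3.58.1 (voom), upper-quartile and RLE scaling, no filter on low counts, 2 groups only, tissue covariates, and leaving out each library.

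The receptors, gene lists and tests were chosen with earlier results of these data known. Named genes were the receptors, the ligand and G protein partners, up to 4 called genes of a list with the smallest p, the 6 most and 3 least alike genes within groups, the 5 most alike over all libraries, flanking and overlapping genes, and the receptors with the 5 largest rises. Lepr, Kiss1r, the close copy of Qrfpr and genes named for having no reads were added after their values were seen. One clock gene is not reported here.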

Additional observations from a re-analysis of the deposited data

How the results depend on the processing

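No paired analysis was possible because the labels number no replicates. Over 26 alternatives the log2 fold change in saline against wild type stayed between 4.03 and 5.39 for Qrfpr and between 2.57 and 3.12 for Gpr176, and in atrasentan against wild type between 4.67 and 5.89 and between 3.73 and 4.25. In atrasentan against saline Qrfpr ran from 0.27 to 0.91 with adjusted p from 0.102 to 0.773. Gpr176 ran from 1.00 to 1.48 with adjusted p from 0.00736 to 0.227, was called in 21 of the 26, and was not called with the proximal tubule covariate (1.48), with podocyte minus proximal tubule means (1.12), without saline libraries 1 and 3 (1.20) and in 2 of the fits that left out a library (0.998 to 1.28 over all 17).

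Counts of genes called depended more on the setting. In atrasentan against saline, 6001 genes became 58 with the proximal tubule covariate, 1179 with podocyte minus proximal tubule means and 2543 without saline libraries 1 and 3. In saline against wild type, 910 became 2000 with DESeq2, 550 with limma-voom, 1433 with 2 groups only, 32 with the proximal tubule covariate, 55 without saline libraries 1 and 3, and 217 to 1539 when a library was left out. With podocyte minus proximal tubule means as a covariate edgeR called 0 genes in that comparison. An unadjusted p under 0.05 was found for 1247 genes in that fit, and no other tool was run with the covariate. The cause of these shifts was not tested.

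The r between Qrfpr and Gpr176 changed sign without wild type library 3 (-0.0153) and ran up to 0.383 when another library was left out. Qrfpr and the macrophage mean stayed between -0.725 and -0.418, and none of the 41 relations had an adjusted p under 0.05 in 19 alternatives. The wild type levels rest on few reads, 12 to 190 in a library for Qrfpr and 18 to 107 for Gpr176, which limits the precision of the fold changes against wild type.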

Other observations

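Because Fkbp5 and Fam107a stood at the head of the scan for Qrfpr, 12 genes known to respond to glucocorticoids were set beside both receptors. The list was written after Fkbp5 had been seen, 2 of its genes are the ones that prompted it, and the list as a set was not tested. Adjusted p-values of single genes are those of the edgeR fit over all genes. Fkbp5 and Fam107a were picked for likeness to Qrfpr, itself chosen on ob/ob against wild type. Nothing is therefore read from their own values in that contrast. With group means subtracted, r with Qrfpr over 17 libraries was 0.84 for Fkbp5, 0.81 for Fam107a, 0.74 for the metallothionein Mt2, 0.70 for Mt1, 0.60 for the transcription factor Klf9, 0.54 for Tsc22d3 (GILZ) and 0.53 for Zbtb16. It was 0.44 for Per1, 0.34 for the kinase Sgk1, 0.33 for the phosphatase Dusp1, 0.22 for Errfi1 and -0.05 for Cdkn1a. With Gpr176 the same 12 genes had r from -0.38 to 0.31.

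Against wild type most of these genes were higher in ob/ob mice, as a description of a list chosen after values were seen. In saline against wild type all 12 log2 fold changes were above 0 and 2 genes were called higher, Fkbp5 and Errfi1, where 3.21% of all genes tested were. These counts include Fkbp5 and Fam107a, which were picked through Qrfpr, so they are no support for a rise of the list. In atrasentan against wild type 11 of 12 were above 0, all but Dusp1, and 7 rose where the share of all genes was 14.7%: Fkbp5, Errfi1, Cdkn1a, Klf9, Fam107a, Tsc22d3 and Sgk1. As a description without a test, the log2 fold change of Fkbp5 against wild type was 1.93 ± 0.44 (SE) with saline and 1.90 ± 0.42 with atrasentan. That of Fam107a was 1.32 ± 0.41 with saline and 1.32 ± 0.39 with atrasentan. Between atrasentan and saline none of the 12 rose and 2 fell, Errfi1 and Dusp1, beside 15.3% higher and 18.5% lower of all genes.

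Errfi1, an inhibitor of EGF receptor signalling, averaged 87.1 ± 13.4 CPM (SD, n = 5) in wild type, 237 ± 70.9 (SD, n = 5) with saline and 141 ± 19.6 (SD, n = 7) with atrasentan. It rose in saline against wild type by 1.45 ± 0.18 (SE) on the log2 scale (edgeR adjusted p = 0.00113) and fell with atrasentan against saline by 0.75 ± 0.16 (edgeR adjusted p = 0.00236). Mt1 averaged 117, 139 and 120 CPM and passed no test. Dusp1 fell with atrasentan against saline by 0.95 ± 0.20 on the log2 scale (edgeR adjusted p = 0.00199).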
